A study of Mus musculus with 12 samples.

Results

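The transcripts of 10 genes that relay or restrain TGF-β signals inside the cell were measured in mouse proximal tubule (PT) cells with and without the type II TGF-β receptor TβRII, the product of Tgfbr2. The members were taken from a fixed list of gene names, not by a rule on their values. That list was chosen with earlier results of these data known. The members are Smad1, Smad2, Smad3, Smad4, Smad5, Smad6, Smad7, Ski, Skil and Tgif1, 10 of the 25514 genes to which the deposited transcripts could be matched. Ligand-bound type I receptors phosphorylate the receptor-regulated Smads, Smad2 and Smad3 after TGF-β or activin and Smad1 and Smad5 after BMP. The phosphorylated Smads join the common partner Smad4 and move to the nucleus, where they act on target genes. Smad6 and Smad7 are inhibitory Smads that block this relay at the receptors, and Ski, Skil (SnoN) and Tgif1 are nuclear corepressors that bind Smad complexes. In TGF-β-responsive epithelial cells Smad7 and Skil are themselves induced by the pathway and serve as negative feedback.

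The study compared 2 conditionally immortalized PT cell lines at rest and under oxidative stress. Their genotypes are given as H2ts6;Tgfbr2fl/fl (TβRII flox/flox PT cells) and H2ts6;Tgfbr2-/- (TβRII-/- PT cells), and the latter were derived in culture by adenoviral Cre. Both carry the temperature-sensitive large T antigen of the Immorto-mouse, were grown at 33 °C with interferon γ and were moved to 37 °C for 5 days before the experiment. Untreated cells stayed in normal culture medium, which held 2.5% serum, and the stressed cells received H2O2 in serum-free medium for 24 h, so an effect of H2O2 and one of serum withdrawal cannot be told apart. Each of the 4 groups had 3 libraries, 12 in all. Because each genotype is 1 cell line, what the loss of TβRII does and what sets the lines apart otherwise cannot be told apart either. Nothing in the labels says that the 3 libraries of a group came from separate cultures. The p-values below therefore set a difference against the spread between libraries within groups, estimated from all 12 libraries, and not against that between cultures.

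The libraries held between 15870155 and 20857618 counts over the transcripts that stood for the genes, and the first principal component took 81.5% of the variance. Tgfbr2, the deleted gene, had between 7032 and 8791 counts in the untreated flox/flox libraries and between 6485 and 6895 in the untreated TβRII-/- libraries, which do not overlap. Counts over a whole transcript do not check whether a part of the gene was removed. Of 12 PT markers 7 were abundant enough to test, with a summed level of 1325 to 1664 CPM in untreated flox/flox cells and 945 to 1008 in untreated TβRII-/- cells. The endocytic receptor Lrp2 and the water channel Aqp1 were high in all 12 libraries, whereas the defining transporters Slc34a1 and Slc22a6 had at most 2 counts and the PT transcription factor Hnf4a at most 1. All 8 epithelial markers were tested, and their summed level was 1277 to 1409 CPM in untreated flox/flox and 2426 to 2594 in untreated TβRII-/- cells. Within that list Epcam had 0 to 4 counts and Cdh1 1 to 12 in the flox/flox libraries, against 649 to 1099 and 1069 to 2071 in the TβRII-/- libraries. Of 8 fibroblast markers 4 were tested, with a summed level of 1149 to 1192 and 667 to 735 CPM in the untreated groups, and Lum and Thy1 at 0 throughout. Most of that difference was 1 gene, Postn, with 5142 to 6525 counts in untreated flox/flox and 171 to 222 in untreated TβRII-/- libraries, while Vim had 12579 to 13858 and 11688 to 12945. With H2O2 the summed PT markers were at 1822 to 1980 CPM in flox/flox and 972 to 1045 in TβRII-/- cells, and the fibroblast markers at 702 to 731 and 534 to 566. The higher PT sum in flox/flox cells came from Aqp1, with 5781 to 7024 counts untreated and 12562 to 14444 with H2O2. Lrp2 had 14323 to 19333 and 14251 to 18181, and Cubn 96 to 127 and 77 to 98. Ggt1 had 56 to 86 and 16 to 26, and Gatm 812 to 943 and 610 to 662. Slc5a2 and Anpep had at most 22 counts in these libraries. The markers of other tubule segments were at 15.7 to 16.7 CPM in untreated TβRII-/- cells and 4.73 to 6.48 with H2O2. In flox/flox cells they were at 2.50 to 3.94 and 3.21 to 3.86. Of these 8 markers 1 was tested, Scnn1a, with 257 to 298 counts in untreated TβRII-/- libraries and 66 to 90 with H2O2. Umod (0 to 1, then 4 to 8) and Slc4a1 (3 to 7, then 11 to 24) went the other way there. These marker levels move with genotype or with H2O2 as members below do, and their part in the members' differences was not tested. In bulk RNA, fewer cells of a type and less RNA per cell cannot be told apart.

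The receptor-regulated Smads are told apart from the inhibitory Smads by the end of the protein, where the type I receptor adds its phosphates. The last 30 coding bases of the transcripts used here, stop codon included, were read from GRCm39 for 4 members, because the comparisons below turn on the balance between these classes. Capitals mark 4 codons for serine, serine, any residue and serine.
Smad1: ccccacaatcctattTCATCCGTGTCTtaa
Smad5: ccgctgaaccccattTCTTCTGTTTCAtag
Smad3: ccgagcatccgctgtTCCAGTGTGTCTtag
Smad6: ctggagatcctactcaacaaccacagatag
They lie in the last coding exons at chr8:80066278-80066307 (minus strand), chr13:56885262-56885291 (plus strand), chr9:63557544-63557573 (minus strand) and chr9:63860806-63860835 (minus strand). The Smad1, Smad5 and Smad3 ends spell the phosphorylation motif with different codons, and the Smad6 end does not contain it. The Ski, Skil and Tgif1 coding ends do not contain it either. Those of Smad2, Smad4 and Smad7 are not reported here.

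The first comparison asked how the intracellular pathway differs between untreated cells with and without TβRII. In untreated TβRII-/- PT cells the feedback genes Skil and Smad7 and the BMP-branch Smads Smad1 and Smad5 were lower, together with Ski and Smad4, while Smad3 and Smad6 were slightly higher. Skil was 3.15-fold lower, Smad7 2.42-fold lower and Smad1 2.07-fold lower. Of the 10 members 8 were called at an adjusted p under 0.05, 2 higher and 6 lower, where the same test called 64.7% of all 12971 genes tested, 33.3% higher and 31.4% lower. The 3 untreated libraries of one genotype did not overlap those of the other for any of the 10 members, as was the case for 65.3% of all genes. The median log2 fold change of the members was −0.41, beside 0.01 over all genes tested. At stricter limits, an unadjusted p under 0.01 with at least a 1.5-fold change, 3 members passed (Smad1, Smad7 and Skil), beside 27.0% of all genes. All 10 members passed the filter on low counts. Adjusted p-values throughout are from edgeR's quasi-likelihood test over all genes, with Benjamini-Hochberg adjustment.

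**Figure D1:**
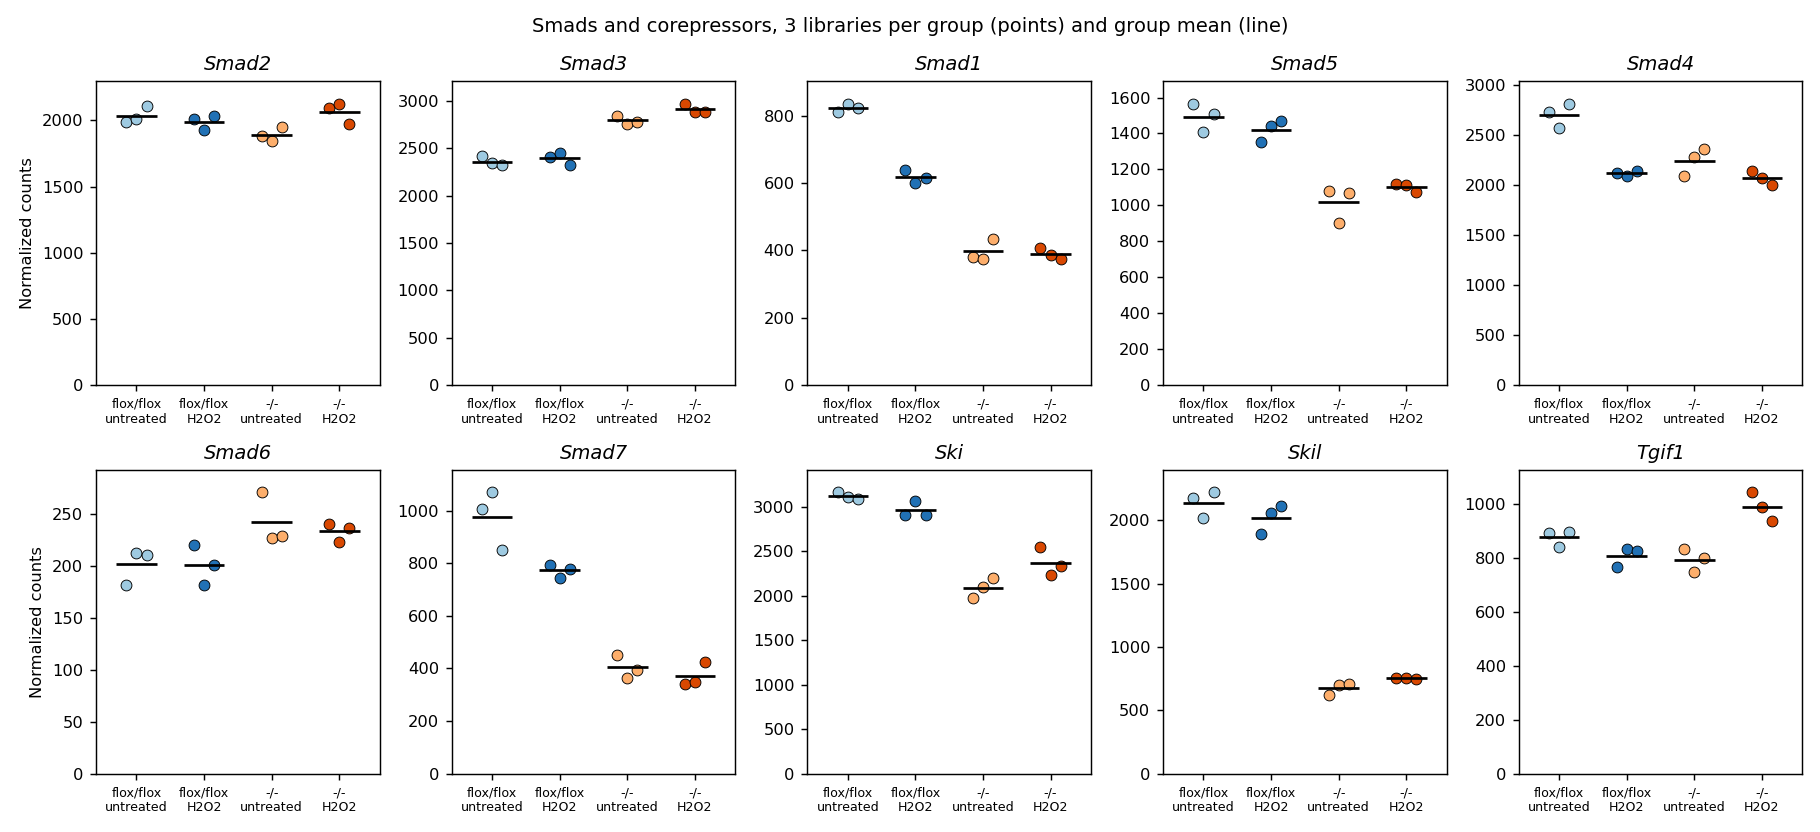
Normalized counts (y axis, each starting at 0) of the 10 members in the 4 groups (x axis), with 1 point per library and a line at the mean of the 3 libraries. Skil, Smad7 and Smad1 sit lower in every TβRII-/- library than in any flox/flox library, and Tgif1 sits highest in the TβRII-/- libraries with H2O2.

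Levels below are normalized counts, that is, counts scaled by TMM to the mean effective library of 17351835. Among the Smads of the TGF-β branch, Smad3, which binds DNA directly and carries most of the pathway's fibrogenic transcription, had 2414, 2340 and 2325 normalized counts in the untreated flox/flox libraries and 2843, 2755 and 2782 in the untreated TβRII-/- libraries. All 3 TβRII-/- values lay above all flox/flox values, a log2 fold change of 0.24 (SE 0.05, adjusted p = 0.000266). Smad2, its partner in the branch, had 1986, 2009 and 2107 against 1881, 1844 and 1950. The groups did not overlap but lay close together, and the difference of −0.10 on the log2 scale (95% interval −0.22 to 0.01, adjusted p = 0.109) did not pass.

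The BMP-branch Smads were both lower without TβRII. Smad1 had 811, 837 and 824 normalized counts in the untreated flox/flox libraries and 382, 374 and 436 in the TβRII-/- libraries. The flox/flox values lay within a narrow band far above the others, and the log2 fold change was −1.05 (SE 0.07, adjusted p = 3.64e-14). Smad5 had 1566, 1408 and 1508 against 1077, 904 and 1069, a log2 fold change of −0.56 (SE 0.07, adjusted p = 1.16e-08). Smad9, the third receptor-regulated Smad of that branch and not among the 10, went the other way at a much lower level, from 19.1 ± 2.91 to 69.1 ± 12.3 normalized counts (SD, n = 3, log2 fold change 1.85, adjusted p = 9.19e-08).

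Smad4, the partner shared by both branches, had 2734, 2566 and 2814 normalized counts in untreated flox/flox cells and 2095, 2275 and 2359 in untreated TβRII-/- cells. The highest TβRII-/- library stayed below the lowest flox/flox library, with a log2 fold change of −0.27 (SE 0.06, adjusted p = 0.000176).

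The inhibitory Smads moved apart. Smad7, which recruits ubiquitin ligases to the type I receptor, had 1006, 1069 and 850 normalized counts in the untreated flox/flox libraries and 453, 365 and 393 in the TβRII-/- libraries. Every TβRII-/- value was far below the lowest flox/flox value, with a log2 fold change of −1.27 (SE 0.09, adjusted p = 4.11e-14). Smad6, which acts mainly on the BMP branch, was the least abundant member, with 182, 213 and 211 against 271, 227 and 229. Its log2 fold change was 0.26 (SE 0.11, adjusted p = 0.0339), and this call was lost with DESeq2 (adjusted p = 0.0502), without flox/flox replicate 1 (0.170) and without TβRII-/- replicate 1 (0.198).

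Among the corepressors Skil showed the largest difference of the 10 members. It had 2177, 2014 and 2220 normalized counts in untreated flox/flox cells and 622, 701 and 708 in untreated TβRII-/- cells, a log2 fold change of −1.66 (SE 0.07, adjusted p = 1.27e-20). Only 2.99% of all genes tested had a lower log2 fold change. Its paralog Ski had 3161, 3105 and 3083 against 1975, 2102 and 2196, again with no overlap, and a log2 fold change of −0.58 (SE 0.06, adjusted p = 6.76e-10). Tgif1, a homeodomain protein that recruits histone deacetylases, had 895, 841 and 898 against 833, 748 and 802. The groups lay side by side, and the log2 fold change of −0.14 (95% interval −0.28 to −0.01, adjusted p = 0.0586) did not pass. It passed with counts summed over transcripts (adjusted p = 0.0323), without flox/flox replicate 2 (0.0334) and without TβRII-/- replicate 1 (0.0382).

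The same genotypes were then compared after H2O2. Skil, Smad7, Smad1, Smad5 and Ski were again lower and Smad3 again higher in TβRII-/- cells, Smad4 no longer differed beyond the spread of the libraries, and Tgif1 was higher. Of the 10 members 7 were called, 2 higher and 5 lower, where 66.4% of all genes were called, 35.1% higher and 31.3% lower. The groups did not overlap for 8 members, beside 71.0% of all genes, and 3 members passed the stricter limits, beside 29.8% of all genes. The median log2 fold change of the members was −0.18, beside 0.02 over all genes.

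Skil had 1888, 2059 and 2109 normalized counts in the flox/flox libraries with H2O2 and 754, 756 and 745 in the TβRII-/- libraries, which lay close together far below. Its log2 fold change was −1.42 (SE 0.06, adjusted p = 4.85e-19). Smad7 had 794, 745 and 779 against 342, 349 and 425, a log2 fold change of −1.06 (SE 0.09, adjusted p = 4.90e-12). Smad1 had 640, 601 and 617 against 407, 388 and 376, a log2 fold change of −0.67 (SE 0.07, adjusted p = 2.01e-09). In all 3 genes every TβRII-/- library stayed below every flox/flox library. Smad5 (log2 fold change −0.36, adjusted p = 1.59e-05) and Ski (−0.32, adjusted p = 2.17e-05) were lower, and Smad3 was higher (0.28, adjusted p = 3.34e-05). Tgif1 had 767, 834 and 826 against 1045, 991 and 939, so that all TβRII-/- libraries lay above the flox/flox libraries, with a log2 fold change of 0.29 (SE 0.07, adjusted p = 0.000233). For Smad4 the difference was −0.03 (95% interval −0.15 to 0.09, adjusted p = 0.656), for Smad2 0.06 (−0.06 to 0.17, adjusted p = 0.401) and for Smad6 0.21 (−0.0034 to 0.43, adjusted p = 0.0773). With library totals in place of TMM, which shifts the median of all genes in this comparison by 0.15, Smad2 and Smad6 were also called higher (adjusted p = 0.00288 and 0.00366).

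**Figure D2:**
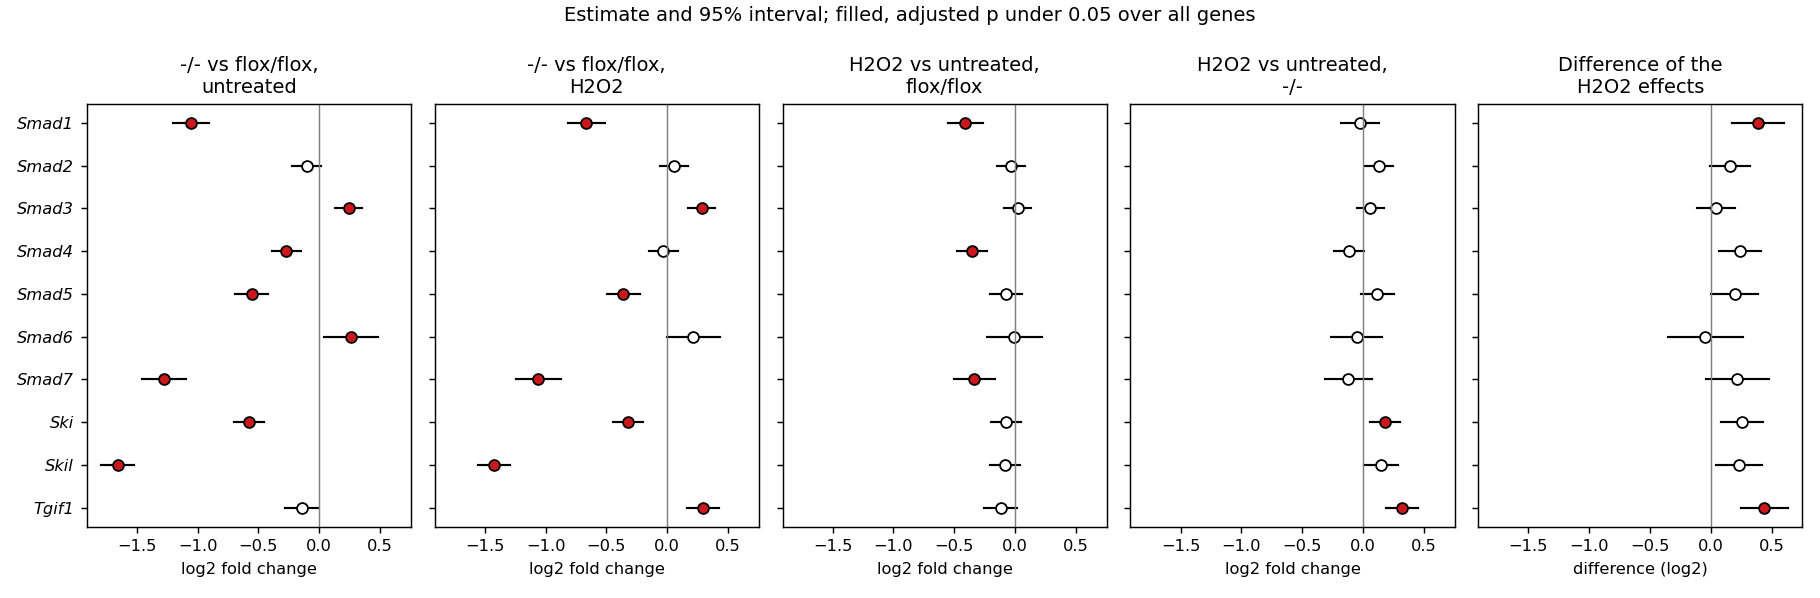
Log2 fold change (x axis) of each member (y axis) in the 4 comparisons and, on the right, the H2O2 effect in TβRII-/- cells minus that in flox/flox cells. Points are estimates, bars are 95% intervals and filled points have an adjusted p under 0.05. The genotype differences of Skil, Smad7 and Smad1 exceed every H2O2 effect of the 10 members, and in the panel on the right only Smad1 and Tgif1 are filled.

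The effect of H2O2 in serum-free medium was small for these genes in both lines, and the summed marker levels given above moved with it as well. In TβRII flox/flox cells Smad1, Smad4 and Smad7 fell and no member rose, so 3 of 10 were called, where 41.6% of all genes were called, 21.0% higher and 20.5% lower. Smad1 fell by 0.41 on the log2 scale (SE 0.07, adjusted p = 2.09e-05), from a mean of 824 ± 12.9 to 619 ± 19.6 normalized counts (SD, n = 3). Smad4 fell by 0.35 (SE 0.06, adjusted p = 1.50e-05), from 2705 ± 127 to 2117 ± 27.9. Smad7 fell by 0.33 (SE 0.08, adjusted p = 0.00175), from 975 ± 113 to 773 ± 25.4. For each of these the libraries with H2O2 all lay below the untreated ones, and groups did not overlap for 5 members, beside 47.4% of all genes. For the other 7 members the log2 fold change lay between −0.12 and 0.02, and Skil, the member furthest from the other genotype, had −0.08 (95% interval −0.21 to 0.04, adjusted p = 0.290). No member passed the stricter limits, beside 7.56% of all genes, and the median of the members was −0.08, beside 0.01 over all genes.

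In TβRII-/- cells Tgif1 and Ski rose with H2O2 and no member fell, so 2 of 10 were called, where 39.6% of all genes were called, 20.5% higher and 19.1% lower. Tgif1 rose from 795 ± 43.0 to 991 ± 53.1 normalized counts (SD, n = 3, log2 fold change 0.32, SE 0.07, adjusted p = 0.000240). Ski rose from 2091 ± 111 to 2369 ± 166 (log2 fold change 0.18, SE 0.06, adjusted p = 0.0187). The call of Ski was lost with counts summed over transcripts (adjusted p = 0.0504), without untreated TβRII-/- replicate 1 (0.113) and without H2O2-treated TβRII-/- replicate 1 (0.166), so that 1 member was then called. With library totals 4 members were called, all higher. Smad1, Smad4 and Smad7, which fell in the flox/flox cells, had log2 fold changes of −0.03, −0.12 and −0.12 here, with adjusted p-values of 0.821, 0.121 and 0.332. Groups did not overlap for 5 members, beside 52.1% of all genes, no member passed the stricter limits, beside 7.77% of all genes, and the median was 0.09, beside 0.02 over all genes.

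Whether H2O2 acted differently in the 2 lines was tested directly, as the H2O2 effect in TβRII-/- cells minus that in flox/flox cells. Tgif1 and Smad1 differed, both toward higher values in TβRII-/- cells, 2 of 10 members where 10.2% of all genes were called, 3.90% higher and 6.28% lower. For Tgif1 the difference was 0.44 (SE 0.09, adjusted p = 0.00237): its log2 fold change was −0.12 in flox/flox cells, which did not pass (adjusted p = 0.159), and 0.32 in TβRII-/- cells. For Smad1 the difference was 0.39 (SE 0.10, adjusted p = 0.0152), and its call was lost without untreated TβRII-/- replicate 2 (adjusted p = 0.0537), flox/flox H2O2 replicate 2 (0.0543) or TβRII-/- H2O2 replicate 1 (0.0552), which left Tgif1 as the 1 member called. Ski (0.25, adjusted p = 0.0523), Smad4 (0.24, adjusted p = 0.0637) and Skil (0.23, adjusted p = 0.106) had positive differences that did not pass in the main test. With library totals they passed (adjusted p = 0.0170, 0.0231 and 0.0403), and 5 members were called. Ski also passed with TMM and no filter on low counts (adjusted p = 0.0463) and without H2O2-treated TβRII-/- replicate 2 (0.0445). Without untreated TβRII-/- replicate 3, 4 members were called, Ski (0.0389) and Smad4 (0.0448) among them. The difference was positive for 9 of 10 members, beside 52.7% of all genes tested, and the median of the members was 0.22, beside 0.01. No member passed the stricter limits, beside 2.75% of all genes. For Smad7 it was 0.21 (95% interval −0.04 to 0.47, adjusted p = 0.317), an interval that holds both 0 and differences as large as that of Tgif1. Tgfbr2 itself had a difference of −0.57 (SE 0.09, adjusted p = 7.85e-05), since it rose from 8393 ± 843 to 13633 ± 328 normalized counts in flox/flox cells and went from 6605 ± 220 to 7216 ± 97.7 in TβRII-/- cells (SD, n = 3, adjusted p = 0.122).

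To compare the members with one another, TMM-scaled CPM values were divided by the length of the transcript used, in kilobases. In untreated flox/flox cells Tgif1 (30.9 ± 1.12 CPM per kb, SD, n = 3) and Ski (29.9 ± 0.39) led with overlapping libraries, followed by Smad3 (25.7 ± 0.52) and Smad4 (25.2 ± 1.18), which also overlapped. Skil (17.3 ± 0.88) and Smad1 (15.2 ± 0.24) each stood apart from the next member. Smad5 (13.0 ± 0.70), Smad7 (12.5 ± 1.45) and Smad2 (12.4 ± 0.39) could not be ordered, and Smad6 was lowest at 3.80 ± 0.32. In untreated TβRII-/- cells Smad3 came first, at 30.4 ± 0.49, above Tgif1 at 27.9 ± 1.51. Skil dropped from the fifth to the eighth place, at 5.48 ± 0.39, where its libraries overlapped those of Smad7 at 5.17 ± 0.57, and those of Smad7 overlapped those of Smad6 at 4.56 ± 0.47. With H2O2 Tgif1 led in both lines, overlapping Ski in flox/flox cells (28.4 and 28.3) and above Smad3 without overlap in TβRII-/- cells (34.9 and 31.7). The order depends on the transcript length used. Smad2 was read over a transcript of 9429 bases with a mean of 1998 counts, whereas another of 1645 bases had a mean of 1351. The low place of Smad2 and the sizes of the ratios with Smad2 below therefore rest on that choice.

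Ratios taken within a library do not depend on how libraries are scaled to one another. The summed level of Smad2 and Smad3 per kb was 1.34 to 1.36 times that of Smad1 and Smad5 in the untreated flox/flox libraries and 2.43 to 2.79 times in the untreated TβRII-/- libraries. With H2O2 the ratio was 1.56 to 1.63 in flox/flox and 2.62 to 2.66 in TβRII-/- cells, so the lines did not overlap in either medium. The ratio of the inhibitor Smad7 to Smad3 was 0.43 to 0.54 in untreated flox/flox and 0.16 to 0.19 in untreated TβRII-/- cells, and 0.36 to 0.39 and 0.14 to 0.17 with H2O2. Skil stood at 0.55 to 0.61 of Ski in untreated flox/flox cells and at 0.27 to 0.28 in untreated TβRII-/- cells. Smad7 was 2.74 to 3.75 times Smad6 in untreated flox/flox and 1.09 to 1.17 times in untreated TβRII-/- cells. These ratios are descriptions, built from the same counts as the tests above.

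**Figure D3:**
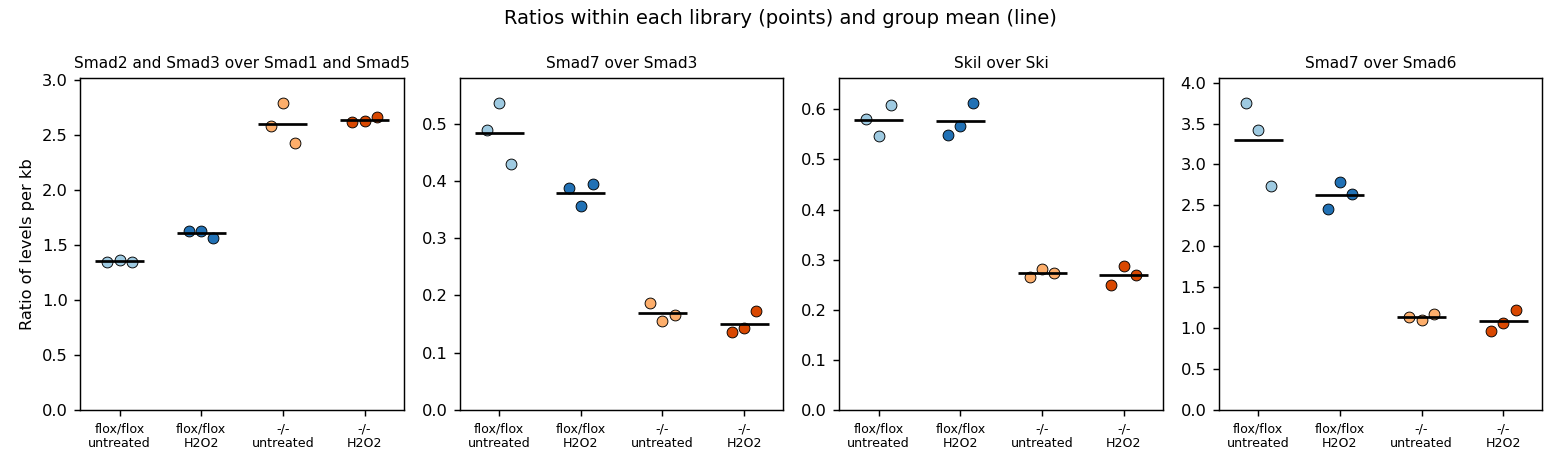
Ratios of levels per kb (y axis, starting at 0) within each of the 12 libraries by group (x axis), with 1 point per library and a line at the group mean. In each of the 4 panels the TβRII-/- libraries lie apart from the flox/flox libraries, above them for Smad2 and Smad3 over Smad1 and Smad5 and below them for the other ratios.

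The deposited counts are per transcript, so the annotated transcripts of a member can be set side by side, although they share many reads. Among transcripts with a mean of at least 50 counts, the log2 fold change between untreated genotypes lay between −1.67 and −1.56 over 6 Skil transcripts, and between −1.38 and −1.15 over 4 Smad7 transcripts. The 5 Smad1 transcripts all had negative values, the lowest −1.14. Every transcript of these genes that was compared had the direction of its gene. Smad3 had values from 0.01 to 0.24 over 5 transcripts, so its rise was not seen to the same size in each. For Smad2 the 7 transcripts ran from −0.10 to −0.03 in untreated cells and from 0.05 to 0.21 with H2O2. The transcript used for Smad2 had the lowest value with H2O2, and the others began at 0.18. Counts summed over transcripts gave Smad2 0.12 with H2O2 (edgeR adjusted p = 0.0601), which did not pass. For Tgif1 the 12 transcripts ran from −0.42 to −0.09 in untreated cells and from −0.19 to 0.36 with H2O2. The lowest Tgif1 values in both media came from a transcript annotated as a retained intron.

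Smad2, Smad4 and Smad7 lie on chromosome 18, whose 365 tested genes had the lowest median log2 fold change between untreated genotypes among 20 chromosomes, 0.33 below that of all genes (−0.33). The highest medians relative to all genes were those of chromosomes 15 (0.35), 2 (0.30) and 5 (0.26). Smad4, at −0.27, stood near the middle of its chromosome, where 53.7% of the tested genes had a lower value, and the 24 tested genes around it had a median of −0.43 relative to all genes. Smad2, at −0.10, had 69.6% of the chromosome's genes below it. Smad7, at −1.27, had 12.3% of the chromosome's genes below it, and its neighbours a median of −0.26. With H2O2 the median of chromosome 18 was again the lowest, at −0.28 relative to all genes.

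Skil, on chromosome 3, had neighbours with a median of −0.23 relative to all genes, beside its own −1.66, and 2.88% of the chromosome's tested genes lay below it. The neighbours of Smad1 (0.02), Ski (0.07), Smad5 (−0.09), Smad3 (−0.04) and Smad6 (−0.07) had medians closer to that of all genes. Whether the chromosome-wide level contributed to the values of Smad2, Smad4 and Smad7 was not tested.

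**Figure D4:**
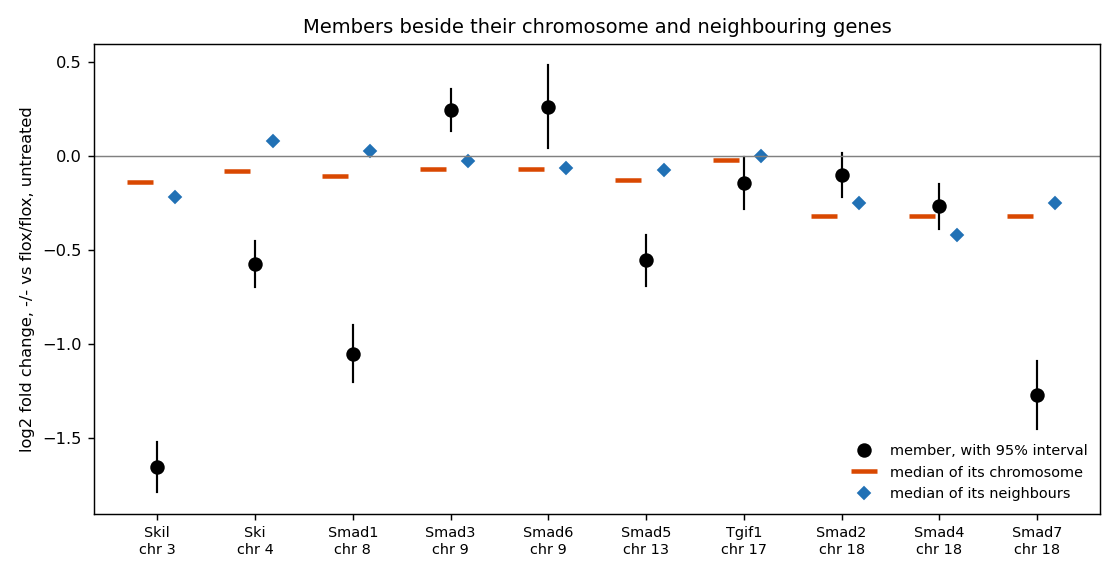
Log2 fold change between untreated genotypes (y axis) for each member with its 95% interval (black), the median of the tested genes on its chromosome (orange bar) and the median of the 24 nearest tested genes (blue diamond), by member and chromosome (x axis). Smad4 lies at the level of its chromosome, and Skil, Smad7 and Smad1 lie far below theirs.

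The genes around the members in the pathway were taken from lists of known components and targets. Of 20 TGF-β/Smad3 targets 19 were tested, and between untreated genotypes 14 were lower and 4 higher in TβRII-/- cells, where 31.4% and 33.3% of all genes were called lower and higher, with a median log2 fold change of −1.35, beside 0.01 over all genes. Among those that fell were Pmepa1, from 3639 ± 503 to 294.8 ± 24.1 normalized counts (−3.63), the latent TGF-β binding protein Ltbp2 (−3.52) and fibronectin, Fn1 (−3.49). The targets that were higher were Tgfbi (3.35, from 3.91 ± 2.99 to 41.4 ± 6.42 normalized counts), smooth muscle actin Acta2 (2.41) and the cell cycle inhibitors Cdkn2b (0.56) and Cdkn1a (0.34). After H2O2 12 targets were lower and 4 higher, with a median of −0.88, where 31.3% and 35.1% of all genes were called lower and higher.

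Of 10 BMP/Smad1/5 targets 8 were tested, and 3 were higher and 2 lower in untreated TβRII-/- cells, beside 33.3% and 31.4% of all genes, with a median of 0.04. The inhibitors of differentiation Id4 (5.27), Id2 (2.93) and Id1 (0.66) were higher, and the BMP antagonist Nog (−5.08) and the decoy receptor Bambi (−1.63, from 11.6 ± 3.89 to 3.65 ± 1.54 normalized counts) were lower. With H2O2, 4 of the 8 fell in flox/flox cells and 6 of the 8 in TβRII-/- cells, and none rose in either, where 20.5% and 19.1% of all genes were called lower. Id1 had 484 ± 41.1 and 763 ± 95.2 normalized counts in the untreated flox/flox and TβRII-/- cells and 356 ± 30.6 and 273 ± 17.1 with H2O2, so the genotype difference turned from 0.66 (adjusted p = 6.93e-08) to −0.39 (adjusted p = 0.000918). The difference of its H2O2 effects was −1.04 (adjusted p = 1.66e-06), opposite in sign to that of Smad1.

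**Figure D5:**
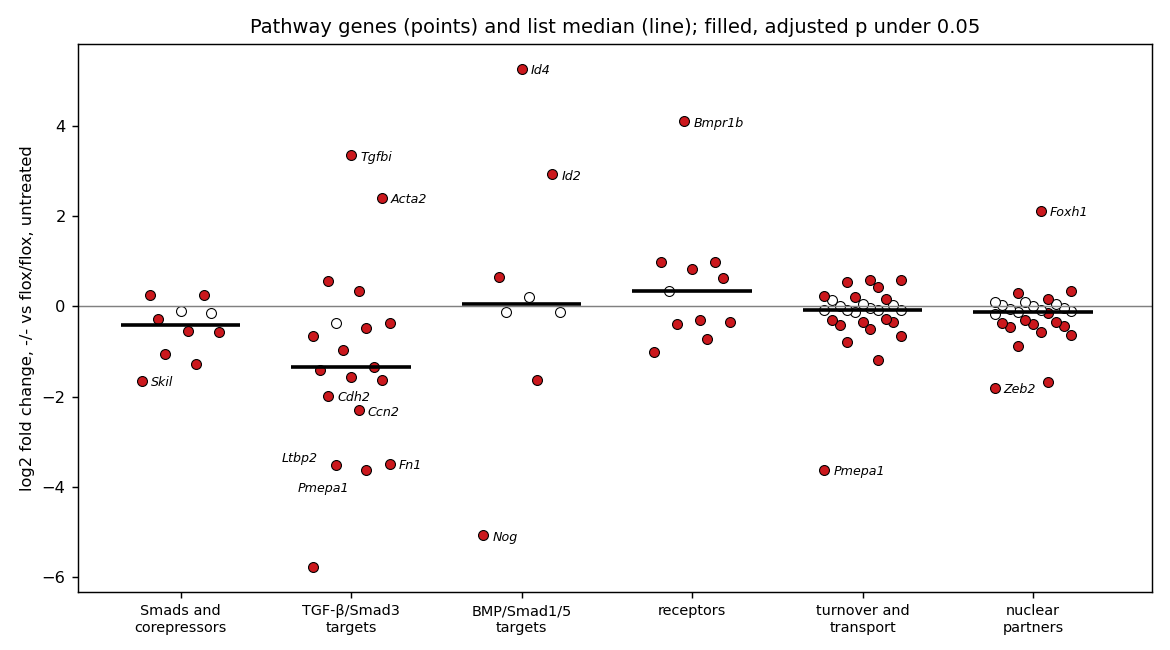
Log2 fold change between untreated genotypes (y axis) of the 10 members and of the tested genes of 5 pathway lists (x axis), with 1 point per gene, filled at an adjusted p under 0.05, and a line at the list median. The TGF-β/Smad3 targets have a median of −1.35, the members −0.41 and the other lists between −0.12 and 0.34, and Pmepa1 and Bambi are each drawn in 2 lists.

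Of 14 receptors 11 were tested, and 5 were higher and 5 lower in untreated TβRII-/- cells, with a median of 0.34. The same test called 33.3% of all genes higher and 31.4% lower. Betaglycan, Tgfbr3 (0.98), and the activin receptors Acvr2b (0.98), Acvr2a (0.84) and Acvr1b (0.63) were higher. The receptors Acvr1 (−1.01), Bmpr2 (−0.73) and Bmpr1a (−0.39) were lower, as was Tgfbr2 (−0.35). The BMP type I receptor Bmpr1b was called higher (adjusted p = 0.000296), with 0 to 1.05 normalized counts in the untreated flox/flox and 5.74 to 11.6 in the untreated TβRII-/- libraries, so the BMP receptors did not share a direction. It lies under the mean count set for naming list genes and is named here after its values were seen.

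Of 27 genes that turn over, dephosphorylate, anchor or transport Smads, all were tested, and 7 were higher and 10 lower in untreated TβRII-/- cells, with a median of −0.08. These 17 of 27 stand beside 64.7% of all genes called. Pmepa1 (−3.63), which binds Smads and is also listed among the targets, and the endocytic adaptor Dab2 (−1.19) fell furthest, followed by the Smad ubiquitin ligase Smurf1 (−0.79) and the deubiquitinase Usp11 (−0.65). The ubiquitin ligases Wwp1 (0.59) and Itch (0.43) and the phosphatases Ctdspl (0.58) and Ppm1a (0.55) were higher.

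Of 28 nuclear partners 27 were tested, and 4 were higher and 12 lower, beside 33.3% and 31.4% of all genes, with a median of −0.12. The repressors of epithelial genes Zeb2 (−1.80) and Zeb1 (−0.89) and the transcription factors Runx2 (−1.67) and Fos (−0.63) fell furthest. Sp1 (0.34), the corepressor Ctbp1 (0.29) and Drap1 (0.16) were higher. In this list Cited2, a transcriptional coregulator, reversed between media: it was lower in untreated TβRII-/- cells (−0.36, adjusted p = 1.83e-06) and higher with H2O2 (0.26, adjusted p = 0.000197), and its H2O2 effects differed by 0.62 (adjusted p = 3.35e-06). Jun, part of the AP-1 complex that partners with Smads, fell with H2O2 in flox/flox cells (−0.17, adjusted p = 0.0323) and rose in TβRII-/- cells (0.29, adjusted p = 0.000557), a difference of 0.46 (adjusted p = 0.000987). The differences of the H2O2 effects of Tgif1 and Smad1 had the same sign as those of Cited2 and Jun, although Smad1 was lower in TβRII-/- cells in both media.

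Among close relatives of the members, Tgif2, a corepressor akin to Tgif1, was higher in untreated TβRII-/- cells, with 197 ± 7.48 and 236 ± 10.7 normalized counts (SD, n = 3, log2 fold change 0.26, adjusted p = 0.0342), and did not pass with H2O2 (0.14, adjusted p = 0.247). Of the 2 relatives called higher in untreated cells, Tgif2 and Smad9, 1 stayed called with DESeq2 or summed transcripts. Likewise 1 stayed called without untreated flox/flox replicate 1 or 2 and without untreated TβRII-/- replicate 2 or 3. A minimum of 10 counts in every library kept the call of Tgif2 and left Smad9 untested. Smad9 had 8.26 to 12.6 normalized counts in flox/flox cells with H2O2. Smad9 had lower values with H2O2 in both lines, with log2 fold changes of −0.89 in flox/flox (adjusted p = 0.0450) and −1.77 in TβRII-/- cells (adjusted p = 4.08e-07). Dach1 was too low to test.

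The genes whose pattern over the 12 libraries was closest to that of Skil and Smad7 were picked by the root mean square difference of centred log2 normalized counts. For Skil they were Nxpe4 (0.10), the Ras GTPase-activating protein Rasal2 (0.10) and the matrix protease Adamts5 (0.13). Adamts5 had group means of 18580 and 6718 normalized counts in untreated flox/flox and TβRII-/- cells and 19923 and 6720 with H2O2. For Smad7 they were Syt11 (0.12), Plekha1 (0.13) and the actin-associated protein Palld (0.13), and Palld had means of 8274, 3626, 6999 and 3408 in the same order. The likeness is a description over libraries that share their lines and media.

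Tgif1 and Smad1 were the members whose H2O2 effect depended on the line. RefSeq promoter windows on GRCm38.p6, from 250 bases before to 50 after a start, were matched by symbol for 6 members, in 12 windows, of which 5 belong to Tgif1 and 1 to Smad1. Windows of Smad2, Smad4 and Smad7 are not reported here, and Skil had none. The Smad-binding letters CAGAC, searched on both strands, were in 4 of the 12 windows, beside 49.6% of all 32851 windows. The GC-rich element GGCGCC was in 3 of the 12 windows, beside 11.9%, with 2 of the 3 being overlapping Smad5 windows that hold the same match, and the AP-1 letters TGANTCA in 0 of the 12, beside 7.81%. The Smad1 window held no CAGAC. The Tgif1 window with the most matches, chr17:70851685-70851984 on the minus strand, is shown because Tgif1 had the largest difference of H2O2 effects among the members, with CAGAC or its complement GTCTG in capitals.
Tgif1: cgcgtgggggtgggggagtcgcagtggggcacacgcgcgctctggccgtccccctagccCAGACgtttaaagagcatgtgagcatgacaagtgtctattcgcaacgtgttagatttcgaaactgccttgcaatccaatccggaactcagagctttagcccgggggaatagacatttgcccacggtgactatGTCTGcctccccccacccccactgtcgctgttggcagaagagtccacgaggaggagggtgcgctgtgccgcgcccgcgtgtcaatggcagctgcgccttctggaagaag
A match to these letters is a description of the window and not evidence of binding.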

How the data were processed

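RNA was measured by TruSeq stranded mRNA sequencing in 12 libraries, 3 for each of 4 groups named in the sample labels. The authors trimmed reads with fastp, used STAR to align them to the GRCm38.p6 genome under GENCODE M23 annotation, and obtained counts from featureCounts, and the labels name the same aligner, counter and build. The values the authors deposited are whole-number counts per transcript, without normalization, and a read on several transcripts is counted on each. Counts per gene had been assumed. Identifiers linked 104820 of 106332 transcripts to genes of GENCODE M39, and the 1512 others, with 1.22% to 1.28% of the counts of a library, were left out. The transcript with the highest total stood for each gene. The sum over transcripts would be 3.20 to 3.32 times as large. Reads shared with overlapping genes or near-identical copies are uncertain. The labels give the H2O2 dose in another unit than the paper, so no dose is given here.

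Tests were run with edgeR 4.0.16 under R 4.3.3 (TMM, filterByExpr, glmQLFit and glmQLFTest, a mean per group, all 12 libraries) over 12971 genes, and members were called at a Benjamini-Hochberg adjusted p under 0.05. Limits of p 0.01 and a fold change of 1.5, after those of the study, were a second rule. The fit was tested on simulated data. Alternatives were DESeq2 1.42.0, its size factors in edgeR, library totals, no filter, a minimum of 10 counts in every library, summed transcripts, the replicate number as a block, the compared libraries alone and leaving out each library. Replicates differed by more than sampling noise, with a chi-square per gene of 3.64 to 12.7. Members, gene lists and tests were chosen with earlier results of these data known. Genes named beside the members are Tgfbr2, the close relatives, up to 4 called list genes with the largest rise and fall between untreated genotypes and a mean of at least 10 counts, list genes with opposite calls in both genotype or both H2O2 comparisons, and the 3 genes closest in pattern to Skil and Smad7. A list gene that this rule would name is not reported here.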

Additional observations from a re-analysis of the deposited data

Results flagged for a closer look

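For 2 members the effect of H2O2 in serum-free medium differed between the lines by a test of the difference itself. For Tgif1 the log2 fold change in TβRII-/- cells exceeded that in flox/flox cells by 0.44 (SE 0.09, edgeR adjusted p = 0.00237), and this difference kept an adjusted p under 0.05 in all 19 alternatives. For Smad1 it was 0.39 (SE 0.10, edgeR adjusted p = 0.0152), and the call held in 16 of 19 alternatives.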

How the results depend on the processing

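Between untreated genotypes 7 to 9 members were called over the alternatives, with H2O2 7 to 9, and for H2O2 in flox/flox cells 3 in each. For H2O2 in TβRII-/- cells, 2 members in the main test, library totals gave 4, summed transcripts 1, the compared libraries alone 3 (Smad4 then lower, adjusted p = 0.0390) and leaving out a library 1 to 2. For the difference of the H2O2 effects, 2 members in the main test, library totals gave 5 and leaving out a library 1 to 4. Without a filter on low counts Ski passed there as well (adjusted p = 0.0463). The values that changed sign were all uncalled: Smad4 between genotypes with H2O2 (0.12 with library totals), Smad1 with H2O2 in TβRII-/- cells (0.020 with library totals), Smad3 with H2O2 in flox/flox cells (-0.0036 with summed transcripts), Smad6 with H2O2 in flox/flox cells (0.0078 with DESeq2 size factors, 0.0075 with DESeq2, 0.0069 with a minimum of 10 counts) and Smad6 in the difference of the H2O2 effects (0.0074 with library totals). Between untreated genotypes 2 BMP/Smad1/5 targets were called lower in the main test. Summed transcripts, the compared libraries alone and leaving out flox/flox replicate 2 or 3 or TβRII-/- replicate 3 gave 1. A minimum of 10 counts in every library gave 0, since it left out both of these targets, Nog and Bambi, before testing. They had 5.74 to 9.41 and 1.91 to 4.84 normalized counts in untreated TβRII-/- cells. The nuclear partners called higher went from 4 to 2 with the compared libraries alone and without flox/flox replicate 1. The causes of the other changes were not tested, beside the shift of 0.15 that library totals give all genes between genotypes with H2O2.

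Leaving out a library in turn gave Smad6 values of -0.071 to 0.066 for H2O2 in flox/flox cells, -0.098 to 0.033 in TβRII-/- cells and -0.14 to 0.040 for the difference of the effects, Smad1 values of -0.069 to 0.047 in TβRII-/- cells and Smad3 values of -0.010 to 0.054 for the difference, each range holding both signs and no call. With the replicate number as a block 8, 7, 3, 2 and 2 members were called in the 5 comparisons, as without it. Same-numbered libraries deviated from their group means with correlations of −0.10 to 0.06 over 18 pairs, beside −0.12 to 0.12 over 36 pairs with different numbers. No shift shared by same-numbered libraries was seen, which cannot tell whether they were handled together. With 3 libraries a group, Smad6, the least abundant member, had the largest standard error of the 10 in each of the 5 comparisons.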
